A study of Drosophila melanogaster with 2 samples.

Results

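Core 1 O-glycans are sugar chains on proteins that begin with N-acetylgalactosamine on serine or threonine and are then extended with galactose. 5 Drosophila melanogaster genes that act in or near this step were chosen by symbol in the dm6 annotation: C1GalTA, Ugalt, tgy, GlcAT-P and GlcAT-S. They are 5 of 13945 protein-coding genes on 2L, 2R, 3L, 3R, 4 and X. All peaks of D1-eGFP whose summit lay in the body of one of these genes or within 5 kb of either end were taken. Ugalt and C1GalTA were known to carry peaks among the highest of this data set when the genes were picked, so peak signals at the 5 genes are given as a description and were not tested.

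D1 is a chromosomal protein with AT hooks, which contact the minor groove of A/T-rich DNA. Its binding was measured by chromatin immunoprecipitation and sequencing in whole pupae with a labelled age of 24 hours, from a line that stably expresses D1 with GFP fused to its C-terminal end, using an antibody to GFP. The 2 biological replicates formed the only group, and both carried the transgene. The labels name neither the promoter that drives the fusion nor the sex of the pupae, and whole animals mix all tissues. The 4 lists of peaks were 1 list for each replicate and 1 for both pooled, with 30000 peaks each, and 3388 peaks kept by an irreproducible discovery rate (IDR) criterion. The IDR set was the top of the pooled list. Signals are the authors' values on an unstated scale, so a peak is described by its signal and by its rank within its list. Read depth is unknown.

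C1GalTA encodes the galactosyltransferase that adds galactose to the first sugar and so makes the core 1 structure, and in flies it is known from blood cells and the nervous system. Ugalt encodes the transporter that brings UDP-galactose, the donor of that galactose, into the Golgi. tgy encodes another member of the galactosyltransferase family of C1GalTA. GlcAT-P and GlcAT-S encode glucuronosyltransferases, which can cap chains that end in galactose with glucuronic acid.

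6 IDR peaks lay at 4 of the 5 genes. C1GalTA had 3, and Ugalt, GlcAT-P and GlcAT-S had 1 each. tgy had none. The 200 bp around 5 of the 6 summits, from the Release 6 reference and read on the strand of the gene, are shown because they carry the contrast described below between the A/T-rich site at C1GalTA and the mixed site at Ugalt. Capitals mark AATAT, the unit of a satellite repeat that D1 is known to bind, on either strand.
Ugalt, chrX:2703785-2703984, minus strand: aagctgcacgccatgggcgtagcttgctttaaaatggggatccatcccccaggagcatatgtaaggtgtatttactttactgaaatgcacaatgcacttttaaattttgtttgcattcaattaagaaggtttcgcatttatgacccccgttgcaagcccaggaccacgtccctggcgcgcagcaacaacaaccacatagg
C1GalTA at its start, chr2L:8951319-8951518, minus strand: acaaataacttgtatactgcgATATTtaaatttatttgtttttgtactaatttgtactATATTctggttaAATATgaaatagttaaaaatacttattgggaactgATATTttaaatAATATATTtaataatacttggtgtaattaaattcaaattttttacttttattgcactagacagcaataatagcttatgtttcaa
GlcAT-P, chr3L:11197709-11197908, minus strand: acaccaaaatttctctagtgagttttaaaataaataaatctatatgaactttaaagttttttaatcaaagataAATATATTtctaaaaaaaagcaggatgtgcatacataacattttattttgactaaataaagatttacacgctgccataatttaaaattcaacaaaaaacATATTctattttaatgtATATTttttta
GlcAT-S, chr2L:9616637-9616836, plus strand: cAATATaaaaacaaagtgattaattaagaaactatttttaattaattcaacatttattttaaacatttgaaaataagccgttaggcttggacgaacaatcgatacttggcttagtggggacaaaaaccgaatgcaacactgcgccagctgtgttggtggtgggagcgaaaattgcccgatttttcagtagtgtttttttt
C1GalTA intron, chr2L:8950253-8950452, minus strand: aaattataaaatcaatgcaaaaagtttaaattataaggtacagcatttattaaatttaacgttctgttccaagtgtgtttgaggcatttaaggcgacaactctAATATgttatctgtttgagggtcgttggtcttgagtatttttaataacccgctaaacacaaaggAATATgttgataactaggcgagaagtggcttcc

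The Ugalt peak held no AATAT and the C1GalTA start peak held 6. The signals of the 2 peaks were nearly equal, and a relation of the word to signal was not tested. GlcAT-P had 4 matches, the intronic C1GalTA peak 2 and GlcAT-S 1, and the upstream C1GalTA peak had none. Matches may overlap each other. The word lay in 75% of the windows of the same length at all IDR summits, in 51.1% of those centred on a start of a coding gene and in 48.6% of windows that tile the 6 chromosomes.

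The Ugalt peak was the single D1 peak of its neighbourhood. Ugalt (FBgn0024994) lies on X at 2701124 to 2703852 on the minus strand, with annotated starts at 2703852 and 2703745. The peak, at 2703751 to 2704030, had a signal of 919 in the pooled list, rank 7 of the IDR set. Its signal was 405 in replicate 1 (rank 15) and 513 in replicate 2 (rank 4). The summit fell at 2703885 in both replicates and in the pooled list, 33 bp upstream of the outer start and 140 bp upstream of the inner one. A summit at the same base in all lists occurred at 43 of the 3388 IDR peaks (1.27%), and at no other of the 30 highest. Each of the 4 lists held 1 peak in the gene and its flanks, and it was this one. The next summit of the pooled list lay 24210 bp away, against a median of 671.5 bp for all IDR peaks and 868.5 bp for the 30 highest. Only 14 IDR peaks had a wider gap, none of them among the 30 highest.

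The summit at Ugalt lay between 2 genes read in opposite directions. eIF2Bbeta, which encodes a subunit of a translation initiation factor, starts 719 bp from the nearer Ugalt start on the other strand, and the summit was 686 bp upstream of that start. The start of Ugalt was therefore the nearest to the peak. The lists do not assign a peak to a gene.

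C1GalTA carried a high peak next to its outer start, flanked by 2 lower ones. The gene (FBgn0032078) lies on 2L at 8943455 to 8951216 on the minus strand. The transcripts RB and RC begin at 8951216 and the transcript RA begins inside the gene at 8946613. The highest peak, at 8951313 to 8951563, had a pooled signal of 897 (rank 9), with 484 in replicate 1 (rank 7) and 419 in replicate 2 (rank 18). Its summit at 8951419 lay 203 bp upstream of the outer start. The replicate summits were 62 bp apart. The start of RA was 3740 bp from the nearest IDR summit. The high signal thus stood at the promoter of RB and RC, and the promoter of RA had no IDR peak.

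The upstream C1GalTA peak, at 8952745 to 8953164, had its summit 1739 bp from the outer start. Its signal was 271 (rank 827), with 153 in replicate 1 and 126 in replicate 2. The intronic peak, at 8950143 to 8950562, had its summit 863 bp downstream of the outer start. Its signal was 203 (rank 1650), with 94.0 in replicate 1 and 97.8 in replicate 2. A peak of each replicate overlapped each of these peaks. The nearest replicate 1 summit to the intronic one, at 8950499, was 146 bp away. It lay closer to the summit of another pooled peak, at 8950555 with a signal of 94.0, outside the IDR set. Replicate 2 listed a peak near each of the pair, with signals of 97.8 and 27.5. The replicate 1 value given for the intronic peak may therefore belong to its neighbour. At all 3 peaks the nearest annotated start was that of C1GalTA. The other 5 pooled peaks of the gene and its flanks stayed below the IDR set, and the lowest pooled signal there was 47.9.

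GlcAT-P (FBgn0036144), on 3L at 11176954 to 11197536 on the minus strand, had its IDR peak at the start that its 5 transcripts share. The peak, at 11197599 to 11198018, had a signal of 349 (rank 407), with 179 in replicate 1 (rank 381) and 173 in replicate 2 (rank 492). Its summit lay 273 bp upstream of the start and 357 bp from the 3′ end of Plod, which encodes a collagen-modifying hydroxylase. The replicates differed in where the summit fell, with 137 bp between them. Replicate 1 listed a further peak with its summit 409 bp upstream of the start and a signal of 95.2. The 20583 bp gene body and its flanks held 9 more pooled peaks, none in the IDR set.

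GlcAT-S (FBgn0032135), on 2L at 9616469 to 9623109 on the plus strand, carried the lowest of the 6 peaks. The peak, at 9616527 to 9616946, had a signal of 159 (rank 2699), with 71.1 in replicate 1 and 88.1 in replicate 2. The lowest signal in the IDR set was 142. The peak of replicate 1 ranked 3238 in its list and that of replicate 2 ranked 2754. The summit lay between the starts of the gene, in an intron of RA, 268 bp downstream of the RA start and 99 bp upstream of the start of RB and RC. 2 further pooled peaks, with signals of 113 and 89.1, lay upstream and were outside the IDR set. Their summits were 2255 and 3013 bp from the RA start, over Trx2, a thioredoxin gene.

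tgy (FBgn0030984), on X at 19125003 to 19127316 on the minus strand, had no peak in the IDR set, the pooled list or the list of replicate 2. Replicate 1 listed 1 peak 3475 bp upstream of the start, with a signal of 25.9 and rank 20850, where the lowest signal of that list was 20.2. The nearest IDR and pooled summit lay 17954 bp upstream of the tgy start, with a signal of 196. A peak list holds only what passed its cut, so these lists give no level of D1 at tgy.

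**Figure D1:**
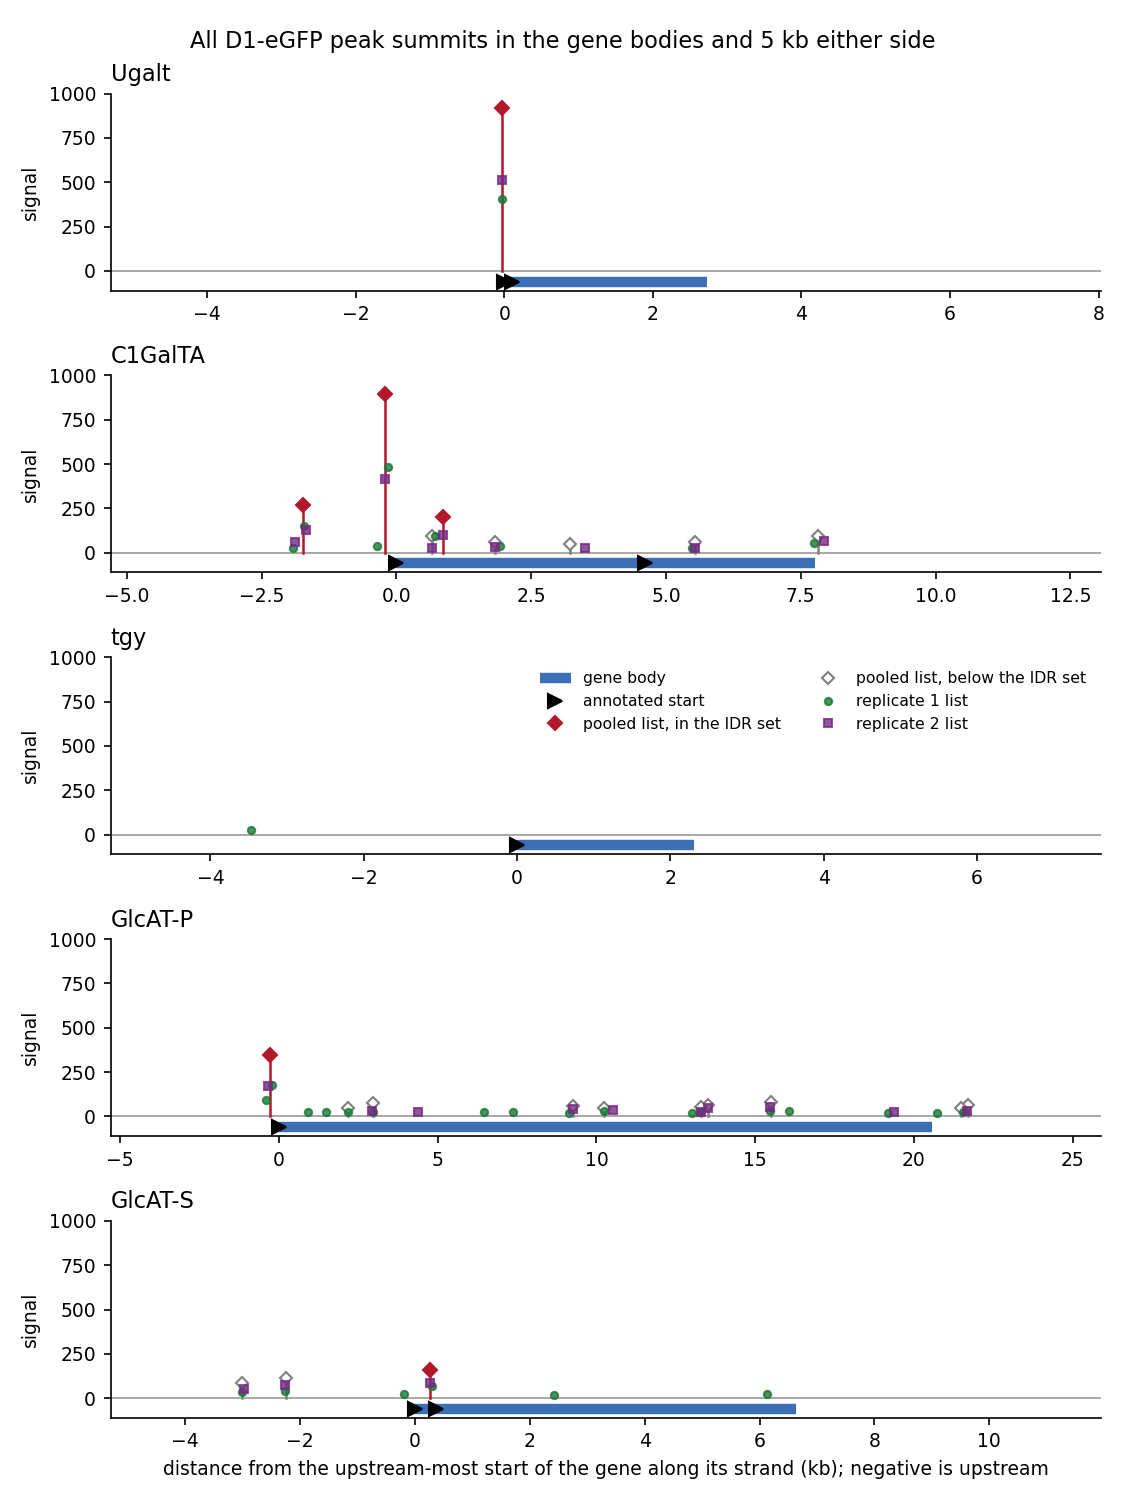
D1-eGFP signal (deposited value) of every peak summit in the 5 genes and 5 kb either side, against distance in kb from the upstream-most start along the strand of the gene. Red diamonds are IDR peaks, open diamonds other pooled peaks, green circles replicate 1 and purple squares replicate 2; Ugalt has 1 peak in each list, C1GalTA has 3 IDR peaks and tgy has none.

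The 2 replicates gave the 6 peaks similar signals. The IDR set was derived in part from the replicate lists, so this is no independent measure of agreement. The log2 ratio of replicate 2 over replicate 1 ran from -0.28 at the upstream C1GalTA peak to 0.34 at Ugalt. Across the 3114 peaks of the IDR set that both replicates matched to within 100 bp, the middle 50% of ratios ran from -0.14 to 0.48. Of the 6 peaks, the C1GalTA start peak (-0.21) and the upstream C1GalTA peak lay below that range and the other 4 lay inside it. The intronic C1GalTA peak, 1 of those 4, was itself not among the 3114, since its nearest replicate 1 summit was 146 bp away. Replicate 1 therefore had the higher signal at the C1GalTA start and replicate 2 at Ugalt, and the order of those 2 peaks differed between the replicates. Both stood above GlcAT-P and the remaining peaks in each replicate. By the nearest peak in each replicate list, GlcAT-P was above the 2 lower C1GalTA peaks in both replicates, and GlcAT-S was lowest.

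The pooled signal was close to the sum of the replicate signals. Its ratio to that sum was 1.00 at Ugalt and 0.99 at the C1GalTA start, GlcAT-P 0.99 and GlcAT-S 1.00, and it ranged from 0.97 to 1.06 over the 6 peaks. Over the 3114 IDR peaks above the median ratio was 1.00. A pooled signal was therefore not compared with a replicate signal as if they were on 1 scale.

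**Figure D2:**
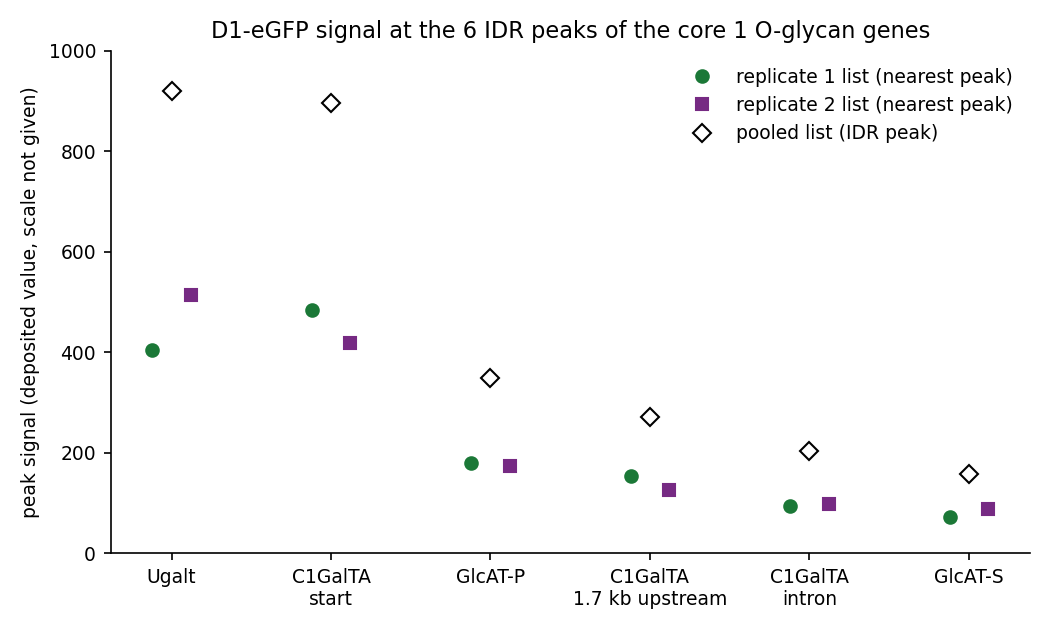
Deposited signal of the 6 IDR peaks in the pooled list (open diamonds) and of the nearest peak in replicate 1 (green circles) and replicate 2 (purple squares). Ugalt and the C1GalTA start peak stand above the other 4 in both replicates, with the order of the pair reversed between them.

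An IDR summit in the gene body or within 5 kb was found at 4 of the 5 genes, against 27.3% of all protein-coding genes. Within 500 bp of a start it was found at the same 4 genes, against 8.46%. 1 of the 5, C1GalTA, had 3 or more IDR summits, against 4.56%. A pooled summit lay at 4 of the 5, against 57.2%. Since these peaks entered into the choice of Ugalt and C1GalTA, nothing is read from the difference. The genes were also longer than the median coding gene, with 2314 to 20583 bp against 2166 bp. The farthest IDR summit inside the 5 kb limit was 1739 bp outside its gene. The nearest one beyond the limit was 7185 bp from C1GalTA (signal 272), 8632 bp from GlcAT-P (208), 10947 bp from GlcAT-S (218), 17954 bp from tgy and 40368 bp from Ugalt (233).

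The 4 promoter peaks were also set beside the genes of nearest rank among the 1180 coding genes with an IDR summit within 500 bp of a start, ranked by signal. Ugalt ranked 4 and C1GalTA 7. Above Ugalt stood CG14100 (signal 1124) and scb (1110), an integrin subunit gene, and between Ugalt and C1GalTA stood CG18428 and eIF4EHP, a translation repressor gene, which share 1 peak (898). PNPase and CG18549 followed C1GalTA, each with 890. GlcAT-P ranked 198, between Gem2 (351) and NHP2 (350) above it and CG6044 and rgn (349 each) below it. GlcAT-S ranked 955, next to CG42245 and MEP-1, which share 1 peak (159), and to yellow-c and the kinase gene Abl (158 each). Likeness here means signal rank alone.

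The sites differed widely in base composition. The 200 bp at the summit had an A+T content of 53.5% at Ugalt, 80% at the C1GalTA start, 80.5% at GlcAT-P, 68% and 67% at the upstream and intronic C1GalTA peaks and 65.5% at GlcAT-S. The mean over the 6 peaks was 69.1% ± 10.1 (SD over 6 peaks), against 66.6% ± 6.89 (SD over 3388 peaks) for all IDR peaks. The 6 peaks are not replicates, since 3 of them belong to 1 gene. In the highest 3388 peaks of each replicate's own list, the mean at these genes was 66.1% ± 0.0926 (SD, n = 2), over 7 peaks in replicate 1 and 6 in replicate 2. That SD is between 2 means over different summits and does not measure agreement at single sites. Both means lay slightly below the 66.6% of all IDR peaks. That value was taken at pooled summits, so the comparison is not like for like. The C1GalTA start and GlcAT-P sites, at their pooled summits, were more A/T-rich than 98.8% and 99.1% of the IDR peaks. At GlcAT-P the value moved with the summit, to 75% at that of replicate 1 and 70% at that of replicate 2. At the C1GalTA start it was 80% and 79%. In the 50 bp at the pooled summit, 71.5% of IDR peaks were below GlcAT-P and 94.3% below the C1GalTA start.

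Ugalt stood low among the IDR peaks in the 200 bp window. Only 144 of the 3388 IDR peaks (4.25%) had a lower A+T content, and the highest of those ranked 164. Among the 30 highest peaks Ugalt had the lowest value, with 58% for the next lowest and a median of 68.5%. The composition depended on the width of the window. In the 60 bp at the summit, A+T content at Ugalt was 73.3%, against a median of 70% over all IDR peaks, and 62% of IDR peaks had a lower value. It was 66% in 100 bp and 52.8% in 500 bp, against medians of 69% and 62.2%. The longest run of A and T within the 200 bp was 11 bp at Ugalt, ttttaaatttt, against 27 bp at the C1GalTA start, atattttaaataatatatttaataata. All IDR peaks had a median run of 13 bp. Around Ugalt the profile fell to 29.3% at 60 bp downstream of the summit, on the side of the gene, and reached 90.2% at 260 bp upstream.

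**Figure D3:**
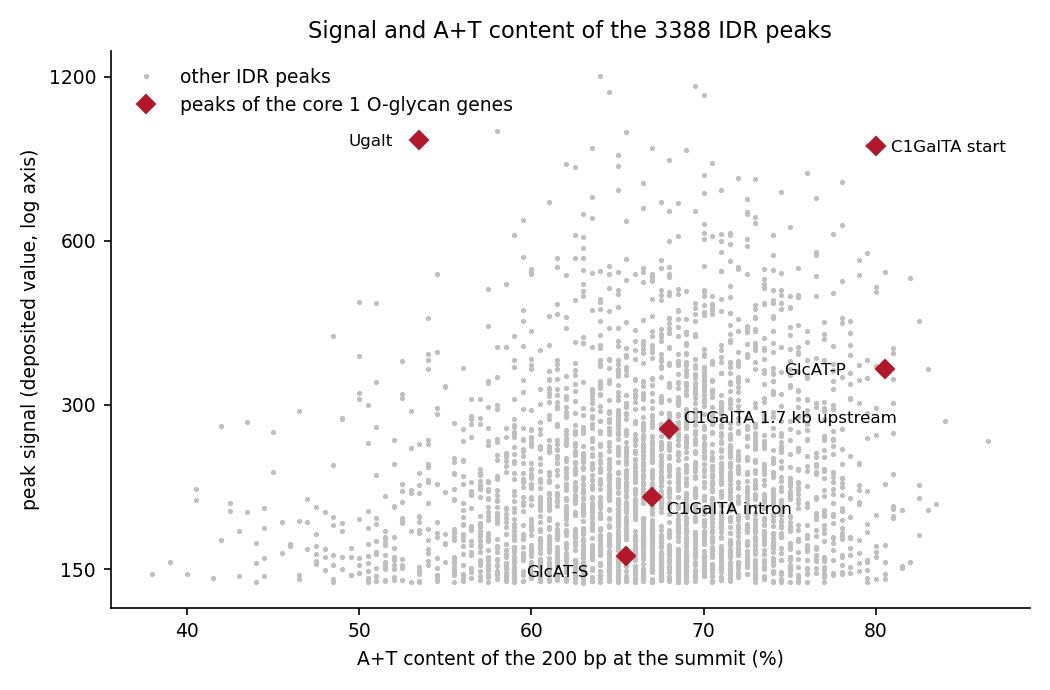
Signal (log axis) of the IDR peaks against the A+T content of the 200 bp at the summit, with the 6 peaks of the core 1 O-glycan genes in red and the other IDR peaks in grey. Ugalt (53.5%) and the C1GalTA start (80%) have nearly the same signal, with 4.25% and 98.8% of IDR peaks at a lower A+T content in windows of this width.

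The summit was not always the most A/T-rich place in its own locus. Windows of 200 bp were laid every 50 bp over each gene and its flanks. At C1GalTA 0 of 356 windows reached the 80% of the start peak, and the highest of them had 79%. The value of the upstream C1GalTA peak was reached by 89 of these windows and that of the intronic one by 97. At GlcAT-P 6 of 612 windows reached the value of its peak. At Ugalt 94 of 255 windows were at least as A/T-rich as the window at its summit, and the mean of that locus, 51.6%, was the lowest of the 5. At GlcAT-S 57 of 333 windows reached the value at the summit. There the A/T-rich stretch lay beside the summit, with 90.2% of A and T in 41 bp centred 60 bp upstream and 51.2% at the summit itself. The 2 lower C1GalTA peaks also had such a stretch beside the summit. The upstream one had 87.8% at 140 bp upstream of its summit and 68.3% at the summit. The intronic one had 85.4% at 80 bp upstream and 63.4% at the summit. The tgy locus had a mean of 56.3% and a maximum of 78.5%, so it held A/T-rich windows but no IDR peak.

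**Figure D4:**
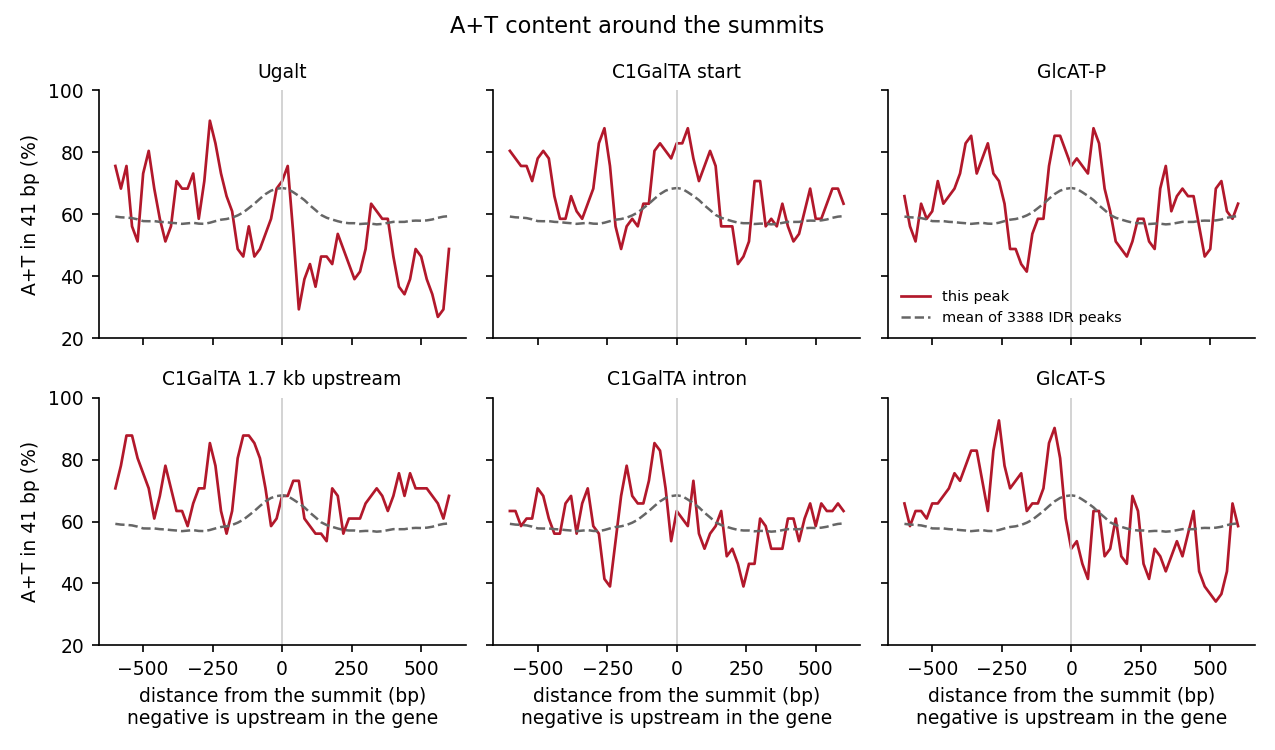
A+T content in 41 bp at each distance from the summit, read along the gene, for each of the 6 peaks (red) and as the mean of all IDR peaks in chromosome direction (grey dashes). At the C1GalTA start and GlcAT-P the profile is raised across the summit, at Ugalt it is raised over a short stretch, and at GlcAT-S the rise lies upstream of the summit.

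10 words were searched on both strands in the 200 bp windows. CGATA lies inside TATCGATA, and AATAT can overlap ATATATAT. The Ugalt window held none of the 10, as did 249 of the 3388 IDR windows (7.35%). The run AAAAAAAA was found at GlcAT-P, GlcAT-S and the upstream C1GalTA peak, and in 18.9% of all IDR windows, 9.94% of the windows at coding gene starts and 10.5% of genome windows. TATAAA was found at both lower C1GalTA peaks and GlcAT-S, and in 39.5% of IDR windows, 29.1% of start windows and 21.6% of genome windows. CGATA was found at the C1GalTA start and GlcAT-S, and in 22.1% of IDR windows, 39.3% of start windows and 21.3% of genome windows. The other 6 words were in none of the 6 windows. Of these, ATATATAT lay in 4.87% of IDR windows, 2.81% of start windows and 3.38% of genome windows. The DREF word TATCGATA lay in 1.62% of IDR windows, 7.84% of start windows and 0.558% of genome windows, and the M1BP word GGTCACACT in 0.767% of IDR windows, 5.26% of start windows and 0.2% of genome windows. The Zelda word CAGGTAG lay in 0.679% of IDR windows, 1.00% of start windows and 1.09% of genome windows. The nuclear receptor word AGGTCA lay in 3.51% of IDR windows, 3.27% of start windows and 5.41% of genome windows, and the GAF word GAGAG in 21% of IDR windows, 22.4% of start windows and 21.4% of genome windows.

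Of 44 further genes in 6 lists, 14 (31.8%) had an IDR summit in the gene body or within 5 kb, against 27.3% of coding genes, and 6 (13.6%) had one within 500 bp of a start, against 8.46%. The highest signal among them was 492, below Ugalt (919) and C1GalTA (897), which were picked with their high peaks known. It was above GlcAT-P (349) and GlcAT-S (159). The polypeptide GalNAc transferases, which attach the first sugar, had IDR summits at 3 of 14 genes, namely Pgant5, Pgant9 and Pgant35A. The highest signals were 332 at Pgant5, in an intron 12954 bp from the nearest start of the gene, 267 at Pgant35A, in an intron of Rab14, and 203 in an intron of Pgant9. Each of the 3 also had a summit within 500 bp of a start, with signals of 146, 191 and 149 for Pgant5, Pgant35A and Pgant9.

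In the galactosyltransferase family of C1GalTA, 3 of 8 other genes had an IDR summit nearby. CG34056 had 1 at 117 bp upstream of its start (signal 402), which CG34057 shared within its 5 kb flank. The peak in the flank of CG3119 (492) lay 273 bp upstream of a start of Duox, an oxidase gene. GlcAT-I, which encodes an enzyme of the glycosaminoglycan linker, had none. Within the family C1GalTA (897) had the highest IDR signal, but it was picked with that peak known, so nothing is read from its place. The peak in the flank of CG3119 came next, then that shared by CG34056 and CG34057, and tgy had no IDR peak.

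Among nucleotide sugar transporters 3 of the 7 genes other than Ugalt had an IDR summit, frc (382), nac (178) and sll (150). The peak at nac, a GDP-fucose transporter gene, lay 114 bp upstream of its start. That at frc, a UDP-sugar transporter gene, lay 579 bp upstream of its start but 99 bp from that of CG32176, and that at sll, a sulphate donor transporter gene, lay 2362 bp upstream. Of 9 genes of nucleotide sugar synthesis, 4 had an IDR summit. With replicate 1 left out, 2 of the 9 had a summit among the 3388 highest of replicate 2. Csas, which activates sialic acid, had 246, UGP 171 and mmy, which makes UDP-N-acetylglucosamine, 159. The mmy summit was 468 bp from its start, that at Csas lay 75 bp from a start of CG7646 and that at UGP 319 bp from one of Pdxk. In the remaining list of 5 genes, egh, a glycolipid mannosyltransferase gene, had a peak in an intron with a signal of 188 and an A+T content of 53.5%.

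**Figure D5:**
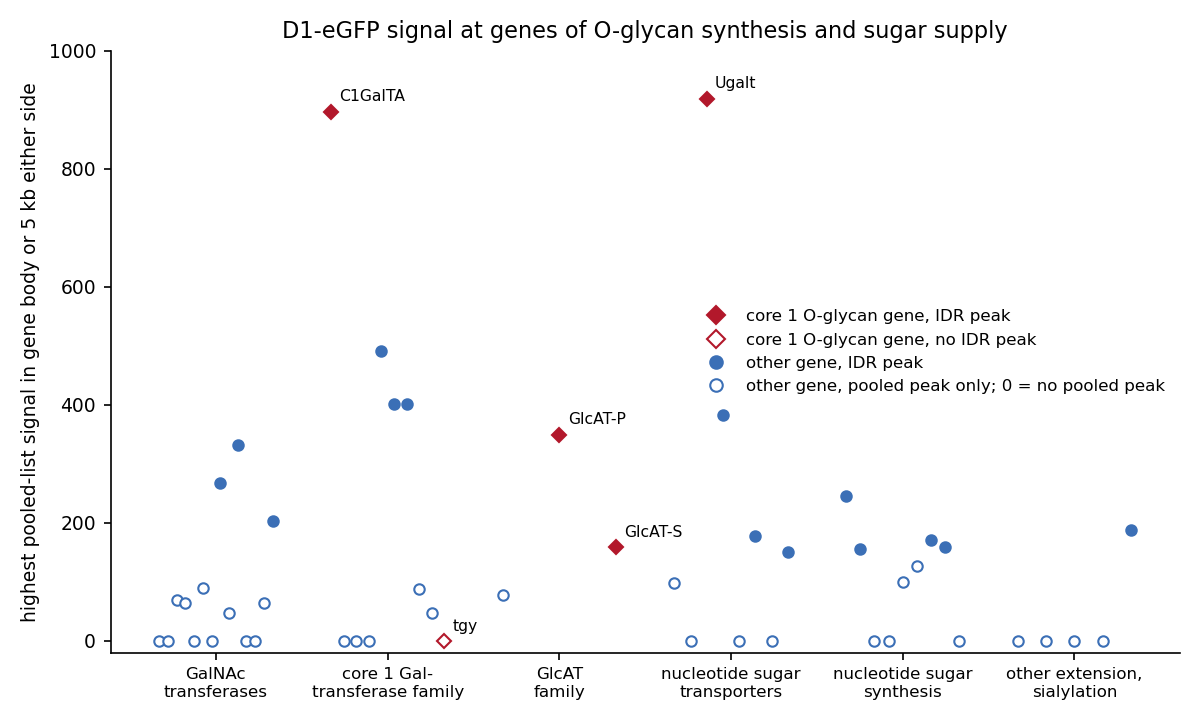
Highest pooled-list signal in the gene body or 5 kb either side for each gene of the 6 lists, with the core 1 O-glycan genes as red diamonds and the other genes as blue circles. Filled symbols are IDR peaks, open symbols pooled peaks below the IDR set, and 0 means no pooled peak. C1GalTA and Ugalt, which were picked with their high peaks known, lie above all the other genes shown.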

How the data were processed

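D1-eGFP ChIP-seq peak lists of 2 biological replicates were analysed. The authors called peaks on each replicate and on both together against a control, and derived the IDR set from those 3 lists, per the labels' text notes. No source used here names the aligner, the caller or the IDR threshold. The deposited signal per peak has no stated scale, and the deposited -log10 q value is tied at the top of each list, so peaks were ranked by signal. Summits were column 2 plus column 10, printed 1-based. Coordinates are dm6 per the labels. Genes came from Ensembl release 115 and sequence from the NCBI Release 6 assembly, whose chromosomes contain every peak. Of 56 listed symbols 49 matched. The genes and lists were chosen with earlier results of these data known. Named genes were the 5 genes, the gene with the nearest start to each of their IDR peaks, up to 3 genes of each list with an IDR summit, and the 2 genes ranked above and below each of them by promoter signal. Outside this rule, GlcAT-I and genes that overlap or neighbour a described summit (eIF2Bbeta, Plod, Trx2, Duox, Rab14, CG32176, CG7646 and Pdxk) were named after their values were seen. No test was made, since there was 1 group. The sequence at 1 of the 6 peaks is not reported here. Calculations used Python 3.11.15, pandas 2.3.3 and numpy 2.4.6 and were tested on simulated data. Alternatives were other flanks, the 1694 highest IDR peaks, other windows and overlaps, and each replicate alone.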

Additional observations from a re-analysis of the deposited data

How the results depend on the processing

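The counts of 4 genes with an IDR peak and 6 peaks stayed within 1.5 times under the settings that follow, except with gene bodies only. Flanks of 2 kb gave 4 genes and 6 peaks, and flanks of 1 kb 4 genes and 5 peaks. Within 500 bp of a start there were 4 genes and 4 peaks. The 1694 highest IDR peaks left 3 genes and 5 peaks, without GlcAT-S. Each replicate alone gave 4 genes, with 6 peaks when replicate 1 was left out and 7 when replicate 2 was. With gene bodies only, 2 genes and 2 peaks were left, since most of the summits lie upstream of the genes. The share of coding genes was 18.9% with 2 kb, 15.7% with 1 kb, 7.67% with gene bodies only, 8.46% within 500 bp of a start and 16.9% with the 1694 highest peaks, and 27.4% to 28.3% with 1 replicate left out. With gene bodies only, the core 1 galactosyltransferase family had a count of 1, the GlcAT family 1, the transporters 0 and sugar synthesis 1. Within 500 bp of a start the counts were 2 in the galactosyltransferase family, 2 among transporters, 1 in sugar synthesis and 0 in the last list. With 1 replicate left out, the sugar synthesis count was 2 to 5. A summit of both replicates lay within 100 bp at 5 of the 6 peaks, against 91.9% of all IDR peaks, and within 50 bp at 3. The IDR set was derived in part from the replicate lists, so these counts are no independent measure of agreement. Mean A+T content at the 6 peaks was 68.7% in 100 bp, 63% in 500 bp and 68.8% at peak midpoints. With 1 replicate left out it was 66.1% to 66.2%, but over other summits. These were 7 peaks of the replicate 1 list and 6 of the replicate 2 list. Ranks of the highest peaks in single replicates ran from 4 to 15 at Ugalt and from 7 to 18 at C1GalTA. No paired analysis was possible because there was only 1 group. Read depth is unknown, so an absent peak at tgy gives no limit on its signal.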
